A study of Mus musculus with 38 samples.

Results

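Whole back skin of Srsf2 knockout mice was compared after 12 days and after 10 days of induced deletion. The 3 libraries of each time, 6 of the 38 libraries of the study, were chosen by their labelled time. Srsf2 encodes an SR protein, an RNA-binding factor that helps the spliceosome to recognise exons. All 6 mice were labelled SRSF2-KO and Krt14CreER positive. Cre recombinase was therefore made in cells with an active keratin 14 promoter, which are basal keratinocytes and the outer cells of hair follicles, and the dermis, vessels, muscle and immune cells of the same sample were not its target. 4-hydroxy tamoxifen, which activates this Cre, was put on the skin every other day. A tdTomato reporter allele was heterozygous in all 3 12-day mice, and was homozygous, wild type and heterozygous in 10-day replicates 1, 2 and 3. The same table held 3 knockout libraries at 4 days and 3 Cre-negative controls that received tamoxifen for 12, 12 and 10 days and differed in tdTomato alleles as well. A second whole-skin experiment, on the P95H mutation of Srsf2, supplied 8 Cre-negative libraries, 5 treated for 12 days and 3 for 28 days, as a further view of hair stage. Sex and age were not given in the labels, and skin was taken from different mice at each time.

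Every value of a library was a whole multiple of 1 smallest unit, called a step below, and levels are given in steps. The libraries totalled 28789820 to 30538130 steps at 12 days and 35530460 to 37528050 steps at 10 days. Between 23009 and 23681 genes of each library sat at 1 step and 0 to 40 at 0, so values of 0 and 1 step are treated as the floor, and steps were not taken as reads. Read depth is therefore unknown. Keratins of basal and suprabasal epidermis (Krt14, Krt5, Krt10, Krt1) and dermal collagens (Col1a1, Col3a1) were abundant in all 6 libraries. 1 library stood apart: in 12-day replicate 3 the Y-linked genes Kdm5d and Ddx3y reached 8764 and 6138 steps, against at most 82 steps in the other 11 libraries, and Xist was at 1 step.

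Hair follicles cycle through growth (anagen), regression (catagen) and rest (telogen). In anagen, matrix cells at the base of the follicle divide and differentiate into the hair shaft and the inner root sheath around it, under Wnt and Sonic hedgehog signals and in contact with the dermal papilla, and follicular melanocytes make pigment. Shaft and sheath keratins and the keratin-associated proteins that crosslink them are made in growing follicles and are nearly silent at rest, so neighbouring patches of normal skin can differ greatly in these transcripts. Damaged or stressed epidermis uses another programme, with the keratins Krt6, Krt16 and Krt17, small proline-rich proteins, stefins and serpins.

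The promoters of both programmes are shown because hair genes fell and part of the wound genes rose at 12 days. The sequences are from RefSeq (GRCm38.p6), 300 bases that start 250 bases before the transcription start, read 5′ to 3′ on the gene's strand. Capitals mark the TATA box TATAAA, the core CTTTGA bound by LEF1 and TCF factors, and the AP-1 motif TGANTCA, searched on both strands. None of the 3 motifs overlapped another in these windows. Krt34 encodes a hair shaft keratin (chr11:100041505-100041804, minus strand), Krt71 an inner root sheath keratin (chr15:101743048-101743347, minus strand) and Krtap8-1 a keratin-associated protein (chr16:89487903-89488202, minus strand). Sprr2d encodes a small proline-rich protein (chr3:92338890-92339189, plus strand) and Stfa3 a stefin, an inhibitor of cysteine proteases (chr16:36455343-36455642, minus strand).
Krt34: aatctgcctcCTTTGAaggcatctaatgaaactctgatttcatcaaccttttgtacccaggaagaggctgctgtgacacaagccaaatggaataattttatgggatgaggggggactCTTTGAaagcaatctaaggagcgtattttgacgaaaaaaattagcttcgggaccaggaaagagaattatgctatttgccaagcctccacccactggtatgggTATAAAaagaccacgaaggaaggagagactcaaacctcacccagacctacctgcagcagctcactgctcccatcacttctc
Krt71: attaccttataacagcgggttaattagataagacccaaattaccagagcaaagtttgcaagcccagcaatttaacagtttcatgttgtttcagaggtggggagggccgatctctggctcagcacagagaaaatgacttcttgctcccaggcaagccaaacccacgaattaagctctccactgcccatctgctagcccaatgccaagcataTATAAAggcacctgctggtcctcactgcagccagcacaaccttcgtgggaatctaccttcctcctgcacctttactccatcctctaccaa
Krtap8-1: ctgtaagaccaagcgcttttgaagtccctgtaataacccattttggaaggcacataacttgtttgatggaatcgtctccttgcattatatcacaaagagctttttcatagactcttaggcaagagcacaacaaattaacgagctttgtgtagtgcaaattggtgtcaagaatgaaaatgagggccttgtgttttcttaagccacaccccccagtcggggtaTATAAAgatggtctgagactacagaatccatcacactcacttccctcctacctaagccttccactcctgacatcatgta
Sprr2d: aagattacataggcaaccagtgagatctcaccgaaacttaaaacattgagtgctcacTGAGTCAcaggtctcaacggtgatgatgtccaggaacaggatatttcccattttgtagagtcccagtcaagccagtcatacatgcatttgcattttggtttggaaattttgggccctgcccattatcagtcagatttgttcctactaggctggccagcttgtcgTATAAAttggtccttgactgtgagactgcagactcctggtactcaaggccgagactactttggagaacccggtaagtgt
Stfa3: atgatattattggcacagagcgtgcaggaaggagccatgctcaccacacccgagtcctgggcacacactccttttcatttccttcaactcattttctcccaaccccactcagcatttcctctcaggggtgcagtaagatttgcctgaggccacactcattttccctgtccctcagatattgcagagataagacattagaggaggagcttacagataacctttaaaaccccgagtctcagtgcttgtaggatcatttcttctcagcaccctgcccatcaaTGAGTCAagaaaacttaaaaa

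TATAAA lay 31 bases before the start in Krt34, 40 bases before it in Krt71 and 29 bases before it in both Krtap8-1 and Sprr2d. CTTTGA occurred 240 and 133 bases before the start of Krt34, and TGANTCA occurred 193 bases before the start of Sprr2d and 29 bases after that of Stfa3. Of 50 keratin-associated protein genes with a promoter in the table, 41 (82.0%) held TATAAA, as did 16 of 28 wound and stress genes (57.1%). The share was 15.7% of the 27025 genes whose promoters were searched and 10.4% of the 12465 among them that were tested. It was also in 6 of 9 shaft keratin and 8 of 14 sheath promoters. CTTTGA was present in 5 of 9 shaft keratin, 2 of 14 sheath, 15 of 50 keratin-associated protein and 0 of 28 wound and stress promoters. It was in 18.2% of all searched and 15.0% of those tested. TGANTCA was present in 0 of 9 shaft keratin, 1 of 14 sheath, 10 of 50 keratin-associated protein and 11 of 28 wound and stress promoters. Its share was 8.97% of all searched and 7.08% of those tested. The hair lists thus differed among themselves in the last 2 motifs. These matches describe letters in a window, and neighbouring genes of the Sprr2 and Krtap clusters have related sequences and are not independent.

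The change between 10 and 12 days reached 37.6% of the genes. Of 19450 genes tested with limma, 7307 passed an adjusted p of 0.05, 3738 of them higher (19.2% of tested) and 3569 lower (18.3%) at 12 days. Counts of rises and falls in the gene lists below are to be read against these shares. The split depended on the scaling: with the deposited values 1438 were higher and 3616 lower, and with all libraries scaled to one common total (equal totals below) 7696 were higher and 1841 lower. The median gene moved by -0.15 and 0.35 (log2) in those fits, against 0.05 in steps. Equal totals include the hair keratin and keratin-associated protein genes, which held 15.2% to 20.6% of all steps at 10 days. With totals computed without them, an alternative added after seeing the data, the median gene moved by 0.08, and 3897 genes were higher and 3137 lower. The 3 libraries of each time did not overlap for 9847 genes (50.6%). P-values measure the spread between libraries labelled as biological replicates.

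Most of this difference lay in the 10-day skin, not in the 12-day skin. Among the 7307 genes that passed, the 10-day libraries were all above the other 9 libraries of the set (12 days, 4 days and control) for 2559 genes and all below them for 2111. Over all genes tested, 15.0% of the 19450 lay above and 12.5% below in this way. The 12-day libraries were all above the other 9 for 203 genes and all below them for 98, against 1.34% and 0.704% over all genes tested. Without 12-day replicate 3, the 12-day libraries stood above or below the rest for 536 and 383 of the genes tested, in place of 260 and 137. Fewer libraries make this condition easier to meet, so a larger count does not single out that replicate. Without 10-day replicate 2 the 12-day counts were 347 and 167. The 10-day counts were then 3458 and 3103, in place of 2910 and 2430. Against the controls, which both times share, 249 genes (1.28%) passed at 12 days, 0.823% of tested higher and 0.458% lower, and 4913 (25.3%) at 10 days, 13.3% higher and 11.9% lower.

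Srsf2 itself had 2303, 2559 and 2382 steps in the 12-day libraries, against 2996, 3084 and 3687 steps in the 10-day libraries. The groups did not overlap and the transcript fell (log2 -0.43, SE 0.10, adjusted p = 0.0072). The level in control skin was 2885, 2879 and 2996 steps, and neither time passed against control (adjusted p = 0.16 at 12 days and 0.29 at 10 days). Whole skin holds many cells in which the gene was not deleted, and in bulk tissue fewer cells of a type and less RNA per cell cannot be told apart.

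Hair genes made the largest falls. Their joint level was summarised as a hair score, the mean log2(steps + 1) of 27 shaft, sheath and matrix genes. The score was 3.98, 9.30 and 7.93 in the 12-day libraries, against 15.2, 15.2 and 15.5 in the 10-day libraries. The 10-day mice were tightly alike and far above every other library, whereas the 12-day mice spread over a wide range. The 4-day score was 4.95, 8.53 and 7.15 and the control score 11.5, 6.56 and 11.1, so the 12-day mice lay within the range that the 4-day mice and the controls cover together, save replicate 1, which was the lowest of all 12. Hair keratin and keratin-associated protein genes held 0.395% to 0.555% of all steps at 12 days and 15.2% to 20.6% at 10 days, against 0.435% to 1.42% in controls.

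**Figure D1:**
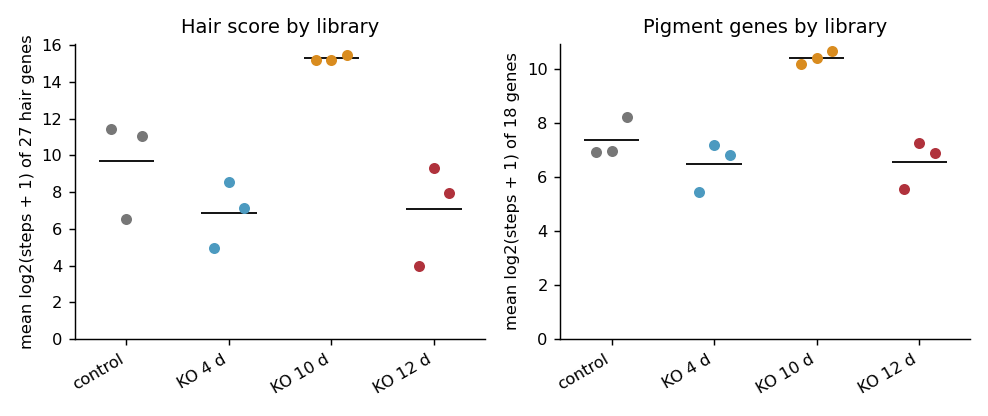
Hair score (left, mean log2(steps + 1) of 27 hair genes) and the mean of 18 pigment genes (right) in each library, by group, with the group mean as a line. The 3 10-day libraries sit at 15.2 to 15.5 on the hair score, above all others, and the 12-day libraries at 3.98 to 9.30.

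All 14 measured hair shaft keratins fell, by a median of 9.77 on the log2 scale, and all 56 measured keratin-associated protein genes fell, by a median of 9.35. Krt33a, a keratin of the shaft, had 4, 1146 and 164 steps in the 12-day libraries, against 133663, 140543 and 187492 steps in the 10-day libraries (log2 -10.60, SE 2.04, adjusted p = 0.0028). Krt34 had 4, 1056 and 106 steps at 12 days, against 109852, 80255 and 130946 steps at 10 days. Krtap15, the largest fall of all, had 2, 558 and 3 steps at 12 days, against 100937, 69863 and 116357 steps at 10 days (log2 -12.28, SE 2.24, adjusted p = 0.0022). The same 2 12-day libraries were low in each of these genes and replicate 2 was the highest of the 3, yet even that library was far below the lowest 10-day value. Krtap7-1, Krtap14, Krtap19-3, Krtap19-9b, Krtap8-1 and Krtap22-2 were also among the 10 largest falls, with log2 differences of -10.35 to -11.18. Several genes of this family are near-identical copies, so the split of reads among them is uncertain.

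The inner root sheath followed the shaft. Of 15 genes of the sheath and companion layer, 14 fell and 1 rose. Krt71 had 40, 7459 and 3651 steps in the 12-day libraries, against 1283940, 1147300 and 1614770 steps in the 10-day libraries (log2 -10.33, SE 2.09, adjusted p = 0.0036). Trichohyalin, Tchh, which hardens the sheath, had 291, 15885 and 8430 steps at 12 days, against 1689420, 1556240 and 2038500 steps at 10 days. Krt75 of the companion layer fell less (log2 -3.40, SE 0.40, adjusted p = 0.00034), as did the crosslinking enzyme Tgm3 (log2 -3.01). The 1 gene that rose was Krt77, a keratin known from epidermis and eccrine sweat ducts (log2 1.13, SE 0.41, adjusted p = 0.049), and its call was lost in 10 fits that left out 1 library (adjusted p = 0.050 to 0.14) and with the deposited values (0.066). The receptor Gprc5d and the desmosomal cadherin Dsg4, both of the hair cortex, fell (log2 -10.64 and -8.13).

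Regulators of the matrix fell with it. All 16 listed transcription factors were lower, by a median of 3.32 on the log2 scale. Foxn1, which drives matrix cells into differentiation and is mutated in nude mice, had 121, 365 and 243 steps in the 12-day libraries, against 2978, 3479 and 4124 steps in the 10-day libraries (log2 -3.98, SE 0.39, adjusted p = 0.00019). In the controls it had 1000, 488 and 997 steps, above all 3 12-day values. Hoxc13 and Msx2, homeobox genes of the shaft, fell (log2 -4.31 and -4.55), as did Dlx3 (log2 -4.45) and Lef1, the nuclear partner of Wnt signalling (log2 -4.31). Sp6 and Prdm1 fell by smaller amounts (log2 -2.66 and -1.35).

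**Figure D2:**
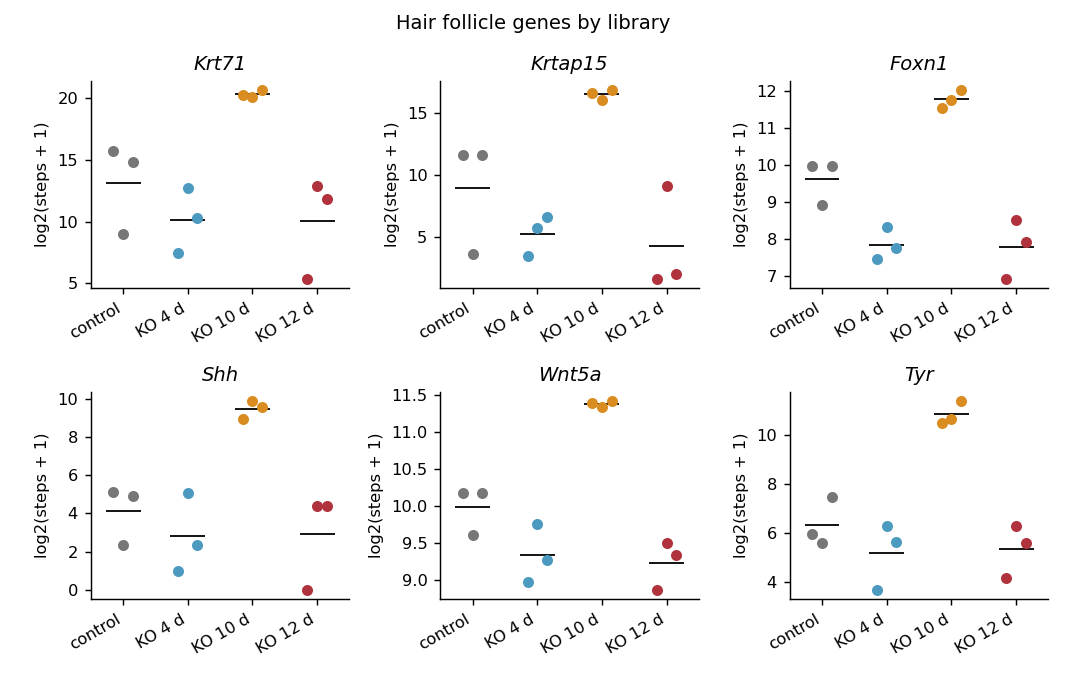
Levels of 6 hair follicle genes as log2(steps + 1) in each library, by group, with group means as lines: sheath keratin Krt71, shaft protein Krtap15, transcription factor Foxn1, ligands Shh and Wnt5a, and pigment enzyme Tyr. In every panel the 10-day points lie above all 12-day points, for example 2978 to 4124 steps against at most 365 steps for Foxn1.

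Signals of the growing follicle fell as well. The ligand Shh, made at the base of the follicle, had 0, 20 and 20 steps in the 12-day libraries, against 501, 945 and 752 steps in the 10-day libraries (log2 -6.54, SE 1.27, adjusted p = 0.0029). Of 14 genes of its pathway, 9 fell and 2 rose. The receptor Ptch1 and the effector Gli1, both induced by the pathway, fell by 1.94 and by 2.18, whereas the co-receptor Cdon rose, with 3276, 2914 and 2827 steps at 12 days, against 1401, 1080 and 1419 steps at 10 days (log2 1.22, SE 0.13, adjusted p = 0.00023). Among 38 Wnt, FGF, BMP and ectodysplasin genes, 21 fell and 5 rose. Fgf5, which ends anagen, fell most (log2 -5.18), and Wnt11 (-3.54), Fgf22 (-2.90), Wnt5a (-2.15) and the Wnt antagonist Nkd2 (-2.04) fell too.

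Genes of the dermal papilla and the stem cell compartment changed less and in both directions. Of 24 papilla genes, 11 fell and 3 rose. Corin, a protease of the papilla, had 9, 75 and 39 steps at 12 days, against 968, 1145 and 1245 steps at 10 days (log2 -5.16, SE 0.76, adjusted p = 0.00081), and Alx4 and Rspo2 fell by 2.72 and by 2.44. Of 24 stem cell genes, 13 fell and 5 rose. Sox9, Lhx2 and Lgr5 were among those that fell (log2 -1.08, -1.14 and -1.18), with Vdr (log2 -1.68), Tbx1 (-1.82) and Barx2 (-1.55). Nfatc1 and Cd34 rose (log2 0.65 and 1.38), and Cd34 is also made by vessels and dermal cells. Without 10-day replicate 1 or 2 the rises in the stem cell list numbered 3, and the median of the list was -0.38 in steps and -0.07 with equal totals.

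Pigment genes fell in 16 of 18 cases, with a median log2 difference of -4.81. Tyrosinase, Tyr, the first enzyme of melanin synthesis, had 17, 78 and 47 steps in the 12-day libraries, against 1453, 1636 and 2677 steps in the 10-day libraries (log2 -5.50, SE 0.71, adjusted p = 0.00045). Dct, Slc24a5 and Pmel fell too (log2 -3.80, -5.73 and -5.23). Kit, the receptor that melanocytes and mast cells need, had 411, 434 and 380 steps at 12 days, against 1306, 1426 and 1428 steps at 10 days, the tightest separation among these genes (log2 -1.76, SE 0.13, adjusted p = 0.00015). In controls Tyr stood at 62, 48 and 175 steps and Kit at 462, 563 and 610 steps, so the 10-day skin was the high one.

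Proliferation genes were lower at 12 days. Of 71 mitosis genes 35 fell and 1 rose, of 58 DNA replication genes 30 fell and none rose, and of 61 replication-dependent histone genes 47 fell and 1 rose, with medians of -0.85, -0.59 and -1.34. Mki67, a marker of cycling cells, had 3887, 5712 and 4524 steps at 12 days, against 10650, 12577 and 8689 steps at 10 days (log2 -1.18, SE 0.39, adjusted p = 0.036). Cyclin B1, Ccnb1, fell by 1.02, the phosphatase Cdc25c by 1.15, the replication factor E2f2 by 1.79 and the helicase subunit Mcm7 by 0.95. Cdc25b was the 1 mitosis gene that rose (log2 0.46). These counts leaned on single libraries: without 12-day replicate 1 only 5 mitosis genes, 13 replication genes and 15 histone genes fell, and without 10-day replicate 2 the counts were 6, 15 and 23. For mitosis they were also lower without 10-day replicate 1 (14), 10-day replicate 3 (12) or 12-day replicate 3 (23). Among 43 genes of homologous recombination and the Fanconi pathway 18 fell and 1 rose, and Brca1, Rmi2 and Fancc were among the lower ones (log2 -1.53, -1.12 and -0.64). That list's median was -0.26 in steps and 0.05 with equal totals, and its falls numbered 9 without 12-day replicate 1 and 11 without any 1 of the 10-day libraries.

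Among genes with a mean of at least 50 steps and no overlap between the times, the largest fitted rise was that of Hist1h2al, a histone gene, with 19, 2621 and 57 steps in the 12-day libraries, against 1, 2 and 1 steps in the 10-day libraries. No fold is given because the 10-day libraries were at or next to the floor, and 1 library carries the 12-day mean. Hist1h2al also had 19, 63 and 75 steps at 4 days and 44, 64 and 26 steps in controls. The 10-day libraries were thus the low ones. Histone genes have many near-identical copies, so their separate values are uncertain.

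Transcripts of RNA processing and translation were slightly lower. Of 13 SR protein genes 7 fell, Srsf2 among them, of 39 core spliceosome genes 18 fell, and none of either list rose, with medians of -0.37 and -0.35. Srsf7 and Srsf9 fell (log2 -0.62 and -0.65), as did the small ribonucleoprotein genes Snrpd2, Snrnp40 and Snrpd3 (log2 -1.03, -0.76 and -0.64). With equal totals 2 spliceosome genes fell and 2 rose, and 1 SR gene fell and 2 rose, so the count of falls rests on the scaling. It was 10 fallen without 10-day replicate 2, and 4 SR genes fell without 10-day replicate 1 or 3 or 12-day replicate 2 or 3. Of 83 cytosolic ribosomal protein genes 64 fell and 2 rose (median -0.54), and 10 fell with equal totals and 26 after quantile normalization. Rps13, Rpl27, Rpl10a and Rps3 fell by 0.79, by 0.87, by 0.68 and by 0.72. The risers were Rpl3l, a form made in muscle (log2 1.36), and Rps3a3, a near-identical copy of another gene whose reads cannot be placed with certainty. Splicing regulators of the hnRNP list went both ways, with Nova1, Khdrbs3 and Celf2 among 6 that rose (log2 1.79, 0.94 and 0.94) and the epithelial factor Esrp2 among 7 that fell (log2 -0.91), and the median of that list was -0.14 in steps and 0.17 with equal totals. The hnRNP falls numbered 4 without 10-day replicate 2, 3 without 10-day replicate 3 and 4 without 12-day replicate 1. That list held 33 genes, and its shares of rises and falls were near the 19.2% and 18.3% of all genes tested.

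Genes of the wound and stress programme of keratinocytes moved in both directions. Of 44 measured genes 10 rose and 5 fell, with a median of 0.77, and the share that rose was near the 19.2% of all genes tested. With the deposited values 6 rose. Against control, 24 of the 44 genes were higher and 3 lower at 10 days (median 2.2). At 12 days 15 were higher and 0 lower (median 1.8). Over all genes tested, 13.3% were higher than control at 10 days and 0.823% at 12 days. Serpinb3b, a serpin of stressed epidermis, had 1599, 766 and 1480 steps in the 12-day libraries, against 202, 83 and 125 steps in the 10-day libraries (log2 3.24, SE 0.36, adjusted p = 0.00027). At 4 days it had 243, 235 and 423 steps and in controls 311, 241 and 264 steps. The 12-day libraries were thus above all others and the 10-day libraries below all others. Against control, limma gave log2 2.17 at 12 days (adjusted p = 0.020) and log2 -1.07 at 10 days (adjusted p = 0.047). The stefin gene Stfa1 had 226, 317 and 555 steps at 12 days, against 36, 92 and 16 steps at 10 days (log2 3.14, SE 0.58, adjusted p = 0.0023). Sprr2d had 257, 565 and 629 steps at 12 days, against 48, 230 and 10 steps at 10 days (log2 3.18, SE 0.90, adjusted p = 0.017). The groups did not overlap for these 3 genes, which was a condition for the largest rises, to which they belong. Stfa1 and Sprr2d had at most 36 steps at 4 days and at most 15 steps in controls.

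Serpinb3a, Ptgs2 and the pore-forming gasdermin gene Gsdmc rose too (log2 2.79, 1.08 and 1.78). In these 3 genes, in Serpinb3b, Stfa1 and Sprr2d and in Stfa3, which did not pass (log2 1.53, adjusted p = 0.086), all 12-day libraries lay above the other 9. That is 7 of 44 genes of the list, against 1.34% of all genes tested. The list was chosen with earlier results of these data known and holds related neighbouring genes, so this share is a description and no test. Plau, the urokinase protease of migrating keratinocytes, rose (log2 1.06) but was higher still at 4 days. The 10-day mice differed among themselves in this programme, with replicate 2 high and replicate 3 low. The count of rises was 19 without 10-day replicate 2, 6 without replicate 1 and 5 without replicate 3, and it was 5 without 12-day replicate 3. The calls of Sprr2d were lost without 10-day replicate 3 (adjusted p = 0.052) and without 12-day replicate 3 (adjusted p = 0.052). Sprr2, stefin and Serpinb3 genes sit in clusters of similar copies, so reads can be shared among them.

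The 4 wound keratins parted ways. Krt6b had 5247, 11774 and 63018 steps in the 12-day libraries, against 1875, 10970 and 174 steps in the 10-day libraries, and the difference did not pass (log2 3.36, SE 1.46, adjusted p = 0.091). Its levels were 98, 196 and 1151 steps at 4 days and 49, 10 and 84 steps in controls. Against control Krt6b passed in limma at 12 days (log2 8.77, adjusted p = 0.021) and at 10 days (log2 5.41, adjusted p = 0.023). All 4 wound keratins passed as higher than control at 10 days, and only 1 of them, Krt6b, at 12 days. Krt16 did not pass at 12 days (log2 4.10, adjusted p = 0.059), yet its fitted difference from control exceeded that at 10 days (log2 2.98, adjusted p = 0.040). Krt6a and Krt17 were closer to control at 12 days (log2 1.23 and -0.08) than at 10 days (log2 2.58 and 1.76). Krt16 had 4498, 10333 and 35745 steps at 12 days, against 5646, 19312 and 1485 steps at 10 days, and Krt6a had 4470, 12918 and 43862 steps, against 30400, 87810 and 15682 steps. Both overlapped between times (adjusted p = 0.37 and 0.22). Krt17, which is also made in the growing follicle, fell, with 19089, 31614 and 45322 steps at 12 days, against 108695, 144179 and 79444 steps at 10 days (log2 -1.84, SE 0.32, adjusted p = 0.0019). Within the 12-day group the order was the same for all 4 keratins, with replicate 3 highest and replicate 1 lowest, and within the 10-day group replicate 2 was highest for all 4.

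**Figure D3:**
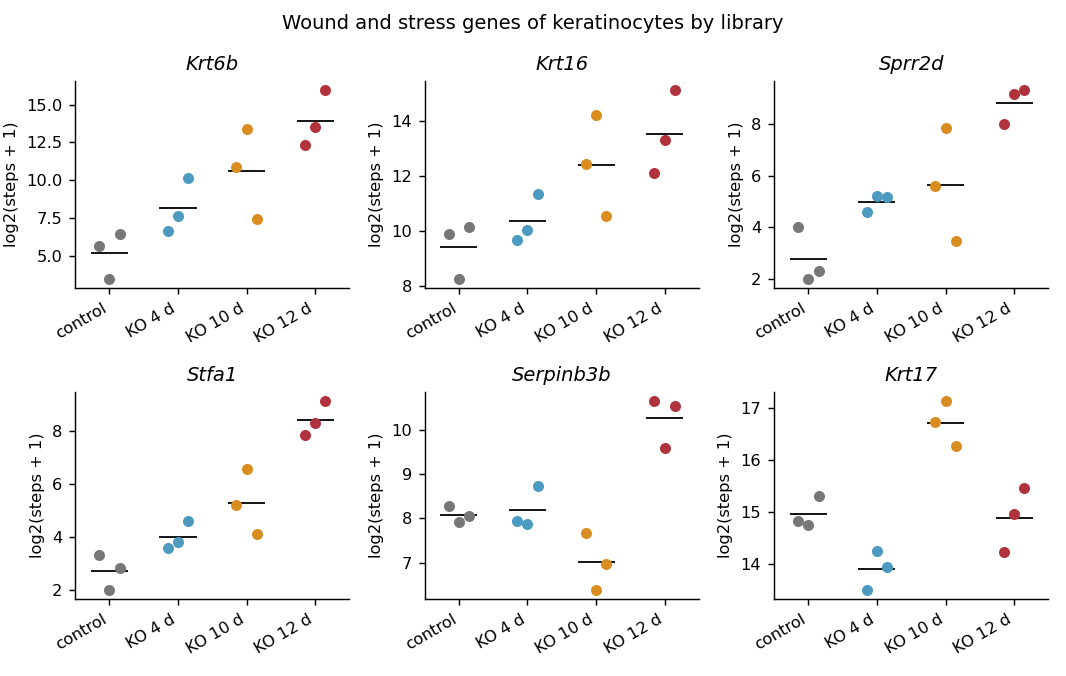
Levels of 6 wound and stress genes as log2(steps + 1) in each library, by group, with group means as lines. The 12-day points are the highest for Sprr2d, Stfa1 and Serpinb3b, the 10-day and 12-day points overlap for Krt6b and Krt16, and Krt17 is highest at 10 days (79444 to 144179 steps).

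The 5 wound list members that fell were Krt17, Sprr1a, Tgfa, Areg and Has3. Sprr1a had 1704, 4138 and 4958 steps at 12 days, against 29596, 29093 and 27060 steps at 10 days (log2 -3.13, SE 0.46, adjusted p = 0.00084), and stood at 4271, 3720 and 7870 steps in controls. The EGFR ligands Tgfa and Areg fell (log2 -1.94 and -2.33), as did the receptor gene Erbb3 (log2 -0.67). Among alarmins, S100a7a fell (17, 134 and 81 steps at 12 days, against 3997, 2428 and 4351 steps at 10 days) together with the defensins Defb1 and Defb6, and Defb14 rose. S100a8 and S100a9, the calprotectin pair of inflamed epidermis, overlapped between the times. S100a8 had 238, 336 and 382 steps at 12 days, against 107, 441 and 64 steps at 10 days (adjusted p = 0.32), with 5 to 43 steps in the 4-day and control libraries.

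Genes of the interfollicular epidermis moved in both directions. The suprabasal keratins Krt10 and Krt1 rose. Krt10 had 83657, 54569 and 59889 steps at 12 days, against 30265, 22958 and 36920 steps at 10 days (log2 1.14, SE 0.26, adjusted p = 0.0068), and Krt1 rose by 0.95 on the log2 scale (adjusted p = 0.0084). Both were near control levels at 12 days (Krt10 79252, 64113 and 47643 steps in controls). The basal keratins Krt14 and Krt5 overlapped between the times, with log2 differences of -0.38 and -0.31 in steps, and 0.36 for Krt14 and 0.38 for Krt5 after quantile normalization (adjusted p = 0.25 and 0.26 in steps). Of 21 basal genes 7 fell and 4 rose, and of 20 suprabasal genes 6 fell and 4 rose. Both rises are near the 19.2% of all genes tested that rose, and 18.3% of all fell. The cadherin gene Cdh3 (log2 -2.05) and the metallothionein Mt4 (log2 -3.34) fell. Mt4 was below all other libraries at 12 days, with 231, 362 and 190 steps, against 2034, 2160 and 3762 steps at 10 days. Of 38 cornified envelope genes 10 fell and 2 rose in steps, and 9 fell and 14 rose with equal totals. Falls included involucrin, Ivl, and the crosslinking enzyme Tgm1 (log2 -1.25 and -1.24). Junction genes followed, with 12 of 24 desmosome and hemidesmosome genes lower and 2 higher in steps and 6 lower and 5 higher with equal totals, and Dsc2 fell by 3.69.

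Lipid genes moved in both directions. Elovl4, which makes the very long fatty acids of the barrier, had 17551, 18041 and 15865 steps at 12 days, against 10515, 10894 and 8393 steps at 10 days (log2 0.80, SE 0.14, adjusted p = 0.0021), and the 12-day values exceeded those of all other libraries. Far2, a wax synthesis gene of sebaceous glands, rose by 1.35, whereas the lipase gene Pnpla1 and the desaturase gene Fads2 fell (log2 -1.12 and -2.83). In all, 8 of 27 barrier and sebaceous genes rose and 5 fell, where 19.2% of all genes tested rose and 18.3% fell. The rises numbered 4 or 5 when any 1 of the 6 libraries was left out and 2 with the deposited values. Of 27 cholesterol and fatty acid synthesis genes 11 fell and 2 rose, with Sqle and Fdft1 lower (log2 -0.63 and -0.39) and Msmo1 higher (log2 0.60).

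Genes under p53 moved in both directions. Of 46 targets 14 fell and 11 rose, where 18.3% of all genes tested fell and 19.2% rose. Their median was -0.03 in steps, -0.23 with the deposited values and 0.28 with equal totals. The rises numbered 6 without 10-day replicate 1 or 12-day replicate 1 and 7 without 10-day replicate 2, and the falls 8 without 10-day replicate 3. Cdkn1a, the cell cycle inhibitor p21, had 2441, 3711 and 4328 steps at 12 days, against 4868, 6066 and 5523 steps at 10 days, a fall of 0.69 (SE 0.20, adjusted p = 0.022) that did not pass without 12-day replicate 1 (adjusted p = 0.074), without 10-day replicate 2 (0.072) or without 10-day replicate 3 (0.057). Plk3 and Zfp365 fell by 2.07 and by 1.58. Steap3, an iron reductase, rose by 1.53, as did the stress hormone gene Gdf15 (log2 1.58) and the death gene Bbc3 (log2 0.60). Trp53 (log2 -0.41, adjusted p = 0.052) and Mdm2 (log2 0.06, adjusted p = 0.69) did not pass. With equal totals 18 targets rose and 6 fell. Of 30 apoptosis genes 9 rose and 2 fell in steps, with Casp8, Fas, Mcl1 and Birc3 higher (log2 0.61, 0.89, 0.43 and 0.67), and 1 rose with the deposited values. Stress response genes of the Atf4 pathway fell in 10 of 23 cases and rose in 3, with a median of -0.31 in steps and 0.001 with equal totals, and 5 fell without 12-day replicate 1. The largest fall was that of Chac1, with 71, 617 and 236 steps at 12 days, against 11620, 8737 and 14279 steps at 10 days (log2 -5.69, SE 0.77, adjusted p = 0.00054). Trib3 of the same pathway rose (log2 1.10).

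Transcripts of cell types that the Cre did not target changed too. Of 30 macrophage and dendritic cell genes 22 rose and 1 fell, with a median of 1.14. F13a1, a marker of resident macrophages, had 20087, 12388 and 14124 steps in the 12-day libraries, against 6110, 4461 and 4663 steps in the 10-day libraries (log2 1.60, SE 0.22, adjusted p = 0.00059). The mannose receptor Mrc1 had 24584, 15578 and 16487 steps at 12 days, against 7858, 6706 and 5723 steps at 10 days (log2 1.46, SE 0.24, adjusted p = 0.0014). At 4 days F13a1 had 24959 to 40154 steps, above all 12-day values, and Mrc1 had 21610 to 38238 steps, which overlapped with them. Csf1r and Lyz2 rose by 1.18 and by 1.20, and Timd4, of long-lived resident macrophages, by 1.84. Arg1, which macrophages and keratinocytes both express, was the 1 that fell (log2 -1.56). The rises numbered 14 without 10-day replicate 3 and 13 with the deposited values.

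Other immune lists showed fewer calls, to be read against the 19.2% of all genes tested that rose. Of 18 Langerhans cell and antigen presentation genes 4 rose and 1 fell, with Cd86 up by 1.49, and of 23 T and natural killer cell genes 2 rose, Il2ra and Xcl1. Interferon-stimulated genes rose in 10 of 42 cases and none fell, a share of rises near that of all genes, with Ifih1 and Ifi44 higher (log2 0.78 and 2.09). That count was 1 with the deposited values, 23 with equal totals, 25 without 10-day replicate 2 and 5 without 10-day replicate 1 or 3. Of 44 chemokine and receptor genes 13 rose and 2 fell, and of 54 interleukin and receptor genes 19 rose and 3 fell. The rises numbered 5, 6 and 8 for chemokines without 10-day replicate 3, 12-day replicate 1 and 12-day replicate 3, and 9 for interleukins without 12-day replicate 1. With the deposited values 5 genes of each of these 2 lists rose, and of the Langerhans list 1 and of the T cell list 0. Ccl17, a chemokine that attracts T cells, had 100, 87 and 193 steps at 12 days, against 48, 48 and 16 steps at 10 days, and at most 29 steps in the 4-day and control libraries.

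Il31ra, the receptor for the itch cytokine interleukin 31, had one of the clearest differences. It had 1653, 1281 and 1649 steps in the 12-day libraries, against 320, 257 and 297 steps in the 10-day libraries (log2 2.38, SE 0.17, adjusted p = 0.00015). The 4-day libraries held 1647, 1186 and 1540 steps and the controls 697, 863 and 621 steps. Klk1, a kallikrein protease, had a like course, with 4798, 3046 and 3627 steps at 12 days, against 452, 291 and 472 steps at 10 days (log2 3.24, SE 0.32, adjusted p = 0.00019), and with 5629 to 14013 steps at 4 days and 1537 to 2413 steps in controls. Both genes thus stood above control at 4 and 12 days and below it at 10 days. The water channel gene Aqp4, the protocadherin Pcdhac2, the serpin Serpina3b, Cyp2b23 and the kinase Mylk4 completed the 10 largest rises (log2 3.11 to 3.29). The largest rises were taken only from genes that passed without overlap between the times, so their lack of overlap was a condition.

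Many dermal genes rose at 12 days. Of 21 endothelial and pericyte genes 14 rose and 1 fell, and 7 rose and 1 fell with the deposited values. The VEGF receptor gene Kdr had 2171, 1803 and 1921 steps at 12 days, against 1112, 819 and 928 steps at 10 days (log2 1.05, SE 0.12, adjusted p = 0.00029), and the lymphatic marker Lyve1 had 942, 968 and 562 steps, against 223, 274 and 153 steps (log2 1.92, SE 0.25, adjusted p = 0.00045). For Kdr the 12-day values overlapped with the controls (1885, 1982 and 1853 steps). Of 33 fibroblast and matrix genes 14 rose and 2 fell, with Eln, Fbn1, Loxl1 and Col3a1 higher (log2 1.16, 1.32, 1.13 and 1.31). The 2 that fell were Tnc and Col12a1 (log2 -2.24 and -1.64), which are made around growing follicles and in wounds. Fibroblast rises numbered 6 with the deposited values, 6 without 10-day replicate 3, 8 without 12-day replicate 3 and 9 without 12-day replicate 2.

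Muscle genes rose in 26 of 31 cases and none fell, with a median of 1.29. Troponin Tnnt3 had 48065, 29462 and 33601 steps at 12 days, against 13892, 12085 and 13708 steps at 10 days (log2 1.46, SE 0.32, adjusted p = 0.0051), and 44757, 36473 and 20154 steps in controls. Mb and Myot, for myoglobin and myotilin, rose by 0.93 and by 1.44. The rises numbered 16 with the deposited values, without 10-day replicate 2 or without 12-day replicate 1. Of 21 adipocyte genes 5 rose, with Gpd1 up by 1.43 (1856, 2247 and 2294 steps at 12 days, against 854, 614 and 934 steps at 10 days), and none fell. Of 13 nerve genes 6 rose and 1 fell. Of 11 mitochondrially encoded genes 3 rose, mt-Nd4, mt-Nd2 and mt-Nd5 (log2 0.56, 0.67 and 0.55), and with the deposited values none did. Adipocyte rises numbered 3 without 10-day replicate 2 or 3 or 12-day replicate 1, and 2 with the deposited values. The adipocyte and mitochondrial counts are to be read against the 19.2% of all genes tested that rose. Hair transcripts took a large share of the 10-day totals, and when libraries were rescaled to equal totals computed without them, an alternative chosen after seeing the data, 3897 genes rose and 3137 fell.

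**Figure D4:**
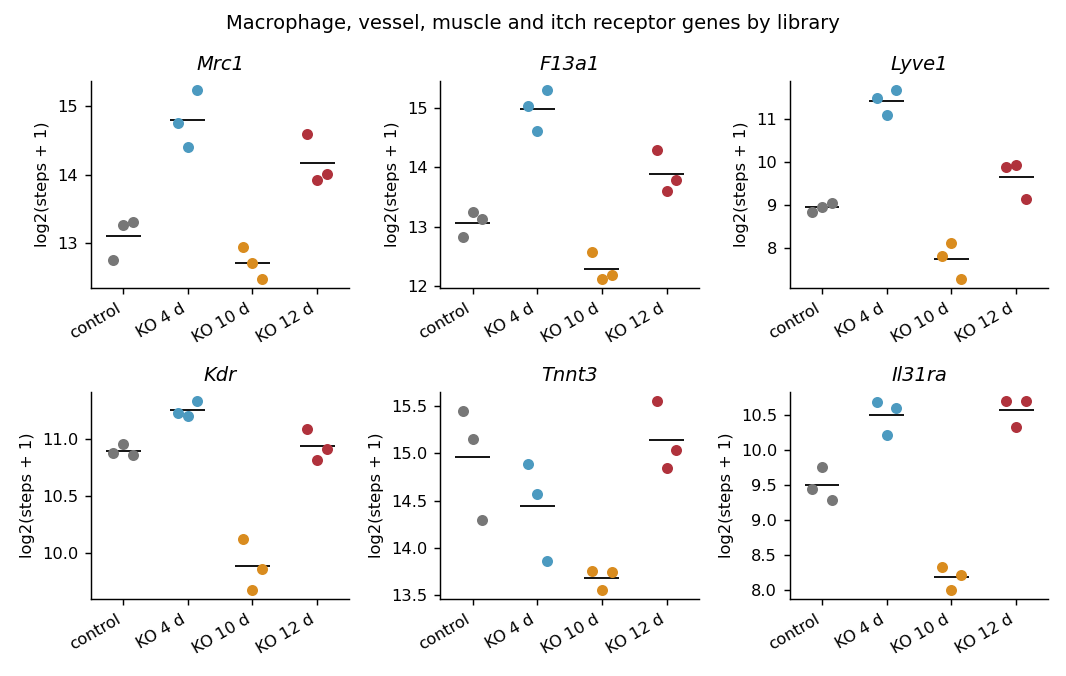
Levels of macrophage genes Mrc1 and F13a1, vessel genes Lyve1 and Kdr, muscle gene Tnnt3 and receptor gene Il31ra as log2(steps + 1) in each library, by group, with group means as lines. The 10-day points are the lowest in all panels but Mrc1, where they overlap with the control points, and the 12-day points are above all 10-day points in every panel.

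Clock and early response genes differed as well. Of 18 circadian genes 7 rose and 2 fell. Nr1d1, a repressor of the clock, had 4970, 3197 and 2572 steps at 12 days, against 409, 527 and 1052 steps at 10 days (log2 2.50, SE 0.43, adjusted p = 0.0017), and Nr1d2 and Dbp rose by 1.88 and by 2.81. Nfil3, whose product opposes that of Dbp, fell by 1.64. The hour of sampling is not given in the labels. Of 28 early response genes 11 fell and 4 rose, with a median of -0.21 in steps and 0.10 with equal totals, and with Dusp2, Dusp5 and Egr2 lower (log2 -3.99, -1.85 and -1.17). The erythroid list had 3 falls and no rise among 9 genes, and its members Slc4a1 and Car2 followed the hair genes (log2 -6.32 and -2.46) without a call for haemoglobin genes.

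Hair stage and duration of deletion cannot be told apart between these groups. The 10-day score of 15.2 to 15.5 was reached by no other library, the next highest being a control at 11.5, and the 12-day mice had no hair score in common with the 10-day mice. With the score as a covariate, limma compared the times at an equal score by extending the slope seen within groups. No gene of 19450 passed an adjusted p of 0.05 (0%), the smallest being 0.18, and 1585 genes (8.15%) had an unadjusted p under 0.05. The fit was less precise, and the SE of the Srsf2 difference was 0.19, against 0.10 without the score. The absence of calls therefore does not show that the times were alike at equal hair stage.

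In that fit the hair lists had medians of -0.11 for shaft keratins, 0.75 for the sheath and companion layer and -1.19 for keratin-associated proteins, and since most shaft and sheath genes are in the score, theirs follow from the adjustment. The median was 0.17 for mitosis, -0.06 for replication and -0.08 for histones. Pigment and matrix regulator genes had negative medians (-1.86 and -1.01), and ribosomal protein genes stayed at -0.48. The score holds matrix genes such as Foxn1, so the matrix list was in part adjusted by itself and its median is no finding. The wound and stress list moved the other way, to 1.52, against 0.77 without the score. Among its genes, Stfa1 and Serpinb3b had fitted differences of 4.47 (unadjusted p = 0.0015) and 2.91 (unadjusted p = 0.0017). The smallest p-values of the fit belonged to Nckap5, Foxn1, Il31ra and Ptgds, with fitted differences of -1.52, -1.91, 1.75 and -2.61, and none passed adjustment, Foxn1 being itself a gene of the score (adjusted p = 0.18 in limma for each).

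**Figure D5:**
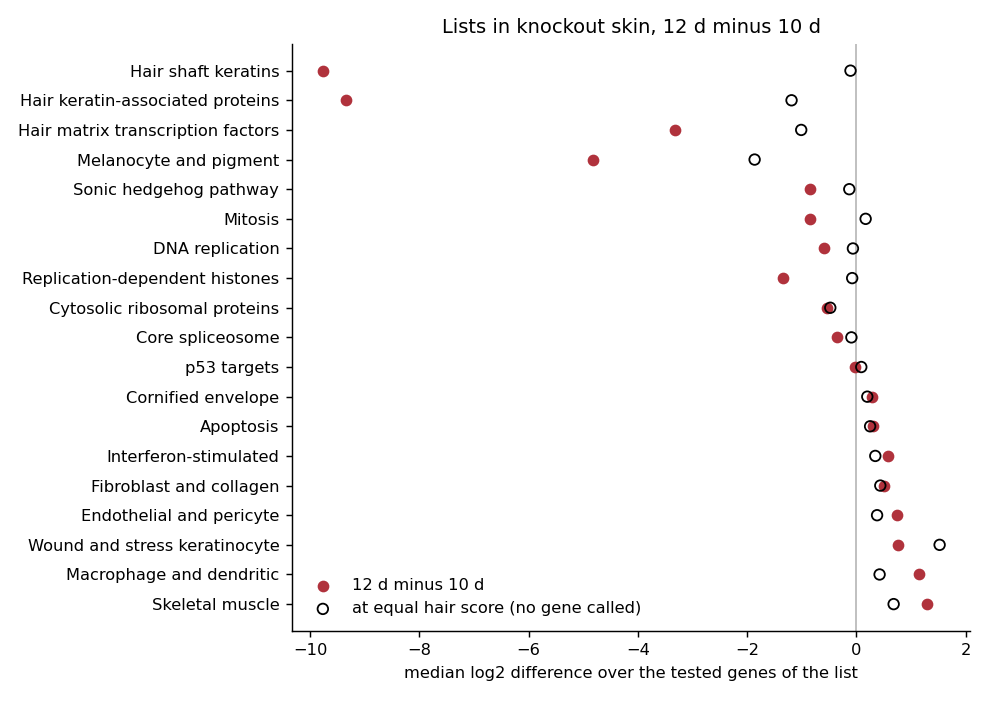
Median log2 difference, 12 days minus 10 days, over the tested genes of 19 lists, from the fit without the hair score (filled red) and at equal hair score (open black). Shaft keratins are at -9.77 and -0.11, macrophage genes at 1.14 and 0.42, and wound and stress genes at 0.77 and 1.52.

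Normal skin gave a second view of stage. The hair score of the 8 Cre-negative libraries of the P95H experiment ran from 3.27 to 9.40, and each gene's slope against it was extended to the score difference of -8.23 between 12-day and 10-day knockout skin. This description was made with the results in view, and the extension goes beyond the scores of those mice. The 3 libraries treated for 28 days had the lowest scores, 3.27 to 3.64, against 4.41 to 9.40 in the 5 treated for 12 days. Stage and time of treatment are therefore mixed in the slope from all 8. Of 6797 called genes found in both tables, the sign from the slope was that of the knockout difference for 78.3% with the 5 controls treated for 12 days and for 81.2% with all 8. The genes of the score are counted in these shares, and no share was computed for genes that did not pass. The shares therefore do not measure how much of the difference goes with hair stage. Most shaft keratins are in the score, so their median of -8.85 from the 5 controls, against a measured -9.77, follows from its construction. Macrophage genes had medians of the other sign, with -0.20 from the slope of 5 controls and -0.17 from that of 8, against a measured 1.14. Mitochondrially encoded genes had -0.72 and -0.04, against 0.45, and wound and stress genes had 0.10 and 0.14, against 0.76 over the genes in both tables. Vessel genes had 0.21 and 0.36, against 0.75, in the measured direction but smaller. Other lists changed sign with the controls used: mitosis genes had -0.28 from 5 controls and 0.17 from 8, against -0.85, interferon-stimulated genes 0.18 and -0.33, against 0.57, and muscle genes 0.17 and -0.14, against 1.29.

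The hair scores of the 4-day mice (4.95 to 8.53) lay within the range of the 12-day mice, and their values are set beside those at 12 days. The groups differed in other ways: Trim12a, a gene of the TRIM family, was at 1 step in all 3 4-day libraries and at 4 steps in 12-day replicate 3, against 136 to 293 steps in the other 8 libraries, and the part of such differences between mice was not tested. The wound genes Krt6b and Stfa1 did not overlap between 4 and 12 days, with Krt6b at 98 to 1151 steps at 4 days and at 5247 to 63018 steps at 12 days, and Stfa1 at 11 to 23 steps and at 226 to 555 steps. The macrophage gene F13a1 ran the other way, with 24959 to 40154 steps at 4 days and 12388 to 20087 steps at 12 days. These 4-day and 12-day values are a description, with no test. The shaft keratin gene Krt33a overlapped between 4 and 12 days, with 23, 321 and 180 steps at 4 days and 4, 1146 and 164 steps at 12 days. Between 10 and 12 days, time after the first tamoxifen, mouse and hair stage cannot be told apart, since each mouse was sampled once and the 10-day scores spanned only 15.2 to 15.5.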

How the data were processed

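The values were deposited by the authors as a normalized signal per gene in whole-skin RNA from stranded total RNA libraries, and the submitters' processing notes name STAR, featureCounts and DESeq2. The sources used here name no genome build for this table. Each library was divided by its smallest positive value (1 step), after which all values were whole numbers within a tolerance of 1e-04, and log2(steps + 1) was taken. Fold changes are on that scale and understate low genes. Of 49585 genes, the 19450 with a mean of at least 10 steps over 12 libraries were tested in limma-trend with 1 coefficient per group and Benjamini-Hochberg adjustment at 0.05, and again with the hair score as a covariate. Unless said otherwise, adjusted p-values are from that limma test. The fits were also run on simulated data in which no gene depended on the hair score. Those runs cannot show whether the fit with the score separates hair stage from time. Members and gene lists were chosen with earlier results of these data known. Genes named were the 10 largest rises and falls and the most significant members of each list. The largest rises and falls were taken from genes that passed with a mean of at least 50 steps and no overlap between the times. Krt34, Serpinb3a, Ccl17, Kit, Il31ra, Cd34, Lgr5, Dbp, Bbc3, Gdf15 and some others were added after their values were seen.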

Additional observations from a re-analysis of the deposited data

How the results depend on the processing

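The count of genes that passed between 12 and 10 days ran from 5054 (deposited values) to 9537 (equal totals) over all settings, and from 5292 to 7369 with 1 library left out, the lowest without 12-day replicate 1. At equal hair score it was 0, and 1 with equal totals, and it ran from 0 to 1 with 1 library left out. Of 179 genes named, 128 kept their sign and call in every setting. The sign turned for Mdm2 (-0.15 with the deposited values), Krt14 (0.36) and Krt5 (0.38) after quantile normalization, Atf4 (0.10 with equal totals), and, without 12-day replicate 3, Xist (1.76; range -2.82 to 1.76 with 1 library left out), Kdm5d (-0.13; range -0.13 to 3.53), Ddx3y (-0.39; range -0.39 to 3.45) and Trim12a (0.44; range -2.36 to 0.44), none of which had passed. The cause was not tested. Deviations of same-numbered libraries of both times had correlations of 0.146, 0.0301 and -0.175, and those of differently numbered libraries ran from -0.196 to 0.152. With 3 libraries at each time these values cannot show whether the numbers pair mice. With the replicate block 7286 genes passed, and 0 at equal hair score. Read depth is unknown, values at 1 step cannot be ranked, and with 3 mice at each time and no overlap in hair score, stage and time cannot be told apart.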
